A study of Homo sapiens with 4 samples.

Results

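The siRNAs si4, si5 and si1 against ZSCAN5 family genes were each compared with the same scrambled control in HEK-293 cells, and the genes that lay on one side of the control in all 3 siRNA libraries are described here. A gene was taken into the comparison where its level reached at least 1 FPKM (fragments counted on a gene, divided by its transcript length and by the depth of the library) in one library and was above 0 in all 4, which left 12983 of the 24934 rows of the expression table. HEK-293 is an established human embryonic kidney cell line transformed with adenovirus DNA. The cells were transfected with 10 nM siRNA in a lipid reagent and collected after 48 h, and polyadenylated RNA was sequenced from strand-specific libraries. One library each was made for ZSCAN5A siRNA 4 (si4), ZSCAN5A siRNA 5 (si5), ZSCAN5B siRNA 1 (si1) and the scrambled siRNA. No group had a second library, so the 3 siRNA libraries are 3 different treatments rather than replicates of one, and all 3 ratios share the 1 control library. A property of that control library and an effect common to the siRNAs cannot be told apart, and in bulk RNA fewer cells of a kind and less RNA per cell cannot be told apart either.

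ZSCAN5A and ZSCAN5B encode nuclear zinc finger proteins with a SCAN domain, through which such proteins pair with each other, and they lie close together on chromosome 19. An siRNA is a short RNA duplex whose guide strand directs the Argonaute protein to a matching messenger RNA, which is then cut. The bases near the 5′ end of the guide, the seed, can also pair with other messenger RNAs, mostly in their 3′ untranslated regions, and lower them to a smaller extent, which is why changes shared by siRNAs of different sequence are of interest.

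The 3 target sequences are shown because they differ between the siRNAs and because matches to their seeds are counted further below. Each is given 5′ to 3′ on the messenger RNA strand, with the 7 bases that pair with guide bases 2 to 8 in capitals.
si4, ZSCAN5A: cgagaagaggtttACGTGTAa
si5, ZSCAN5A: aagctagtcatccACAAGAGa
si1, ZSCAN5B: acgtgtgcaataaATCATTTa
On hg19 the si4 target lies at chr19:56733332-56733352 and the si5 target at chr19:56733307-56733327, both on the minus strand in the coding part of exon 6 of 6 of ZSCAN5A. The si1 target lies at chr19:56701591-56701611 on the minus strand, in the coding part of exon 5 of 5 of ZSCAN5B.

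ZSCAN5A measured 0.730 FPKM in the si4 library, 0.713 in the si5 library, 2.53 in the library labelled ZSCAN5B si1 and 2.42 in the control. The 2 ZSCAN5A libraries were thus at 30.2% and 29.5% of the control, and the third library was at its level. ZSCAN5B was barely expressed, at 0.0331, 0.0663, 0.0948 and 0.0903 FPKM in the same order, which corresponds to an estimated 4, 10, 9 and 9 fragments. The library labelled ZSCAN5B si1 therefore showed no lower ZSCAN5B than the control, but at 9 estimated fragments in each the level is too low to check the label, and the study's other assays of the knockdown were not used here. Each direction below that uses this library is drawn from its label. Neither gene was on one side of the control in all 3 libraries. RMRP, the RNA of the RNase MRP ribonucleoprotein, measured 6.83 (si4), 5.15 (si5), 6.36 (library labelled ZSCAN5B si1) and 2.24 FPKM (control), while RPPH1, the RNA of RNase P, measured 1.63, 1.48, 1.88 and 1.66 FPKM. RMRP was above the control in all 3 and RPPH1 was not; both are short RNAs without a poly(A) tail, and the RMRP values rest on an estimated 32 to 113 fragments.

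The steps between low FPKM values placed the sequencing depth of the siRNA libraries at 1.09 (si4), 1.54 (si5) and 1.02 (library labelled ZSCAN5B si1) times that of the control, an estimated 53.7 M (control) to 83.0 M (si5) fragments. The FPKM values summed to 488036 in the control and to between 537181 and 546239 in the siRNA libraries, whereas the median log2 ratio over the genes compared was -0.01 (si4), -0.03 (si5) and -0.01 (library labelled ZSCAN5B si1). All 6 HEK-293 markers (VIM, KRT8, KRT18, NEFL, NEFM and INA) were expressed in every library, from 6.75 FPKM for INA to 359 for VIM. Of the markers of blood, liver, endothelium and fibroblasts, only COL1A1 reached 1 FPKM in any library, and HBB, TTR and COL1A2 were at 0 in every library.

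In 3909 of the 12983 genes (30.1%) all 3 siRNA libraries were above the control, and in 4702 (36.2%) all 3 were below it. The other 4372 genes (33.7%) were split. The shared differences were small: the median of the mean log2 ratio was 0.19 for the higher genes and -0.24 for the lower ones. Past 1.5-fold in all 3 libraries there were 21 higher genes (0.162%) and 144 lower genes (1.11%), so 87.3% of these larger differences were decreases. A stricter comparison asked that the control lie farther from the nearest siRNA library than the 3 siRNA libraries lay from each other, and 1599 genes above (12.3%) and 2009 below (15.5%) met it. Counting error was estimated for the genes with an annotated length. It was exceeded in every library, at the 95% level, for 2277 of 3784 higher genes, for 2684 of 4472 lower genes, for 12 of 13 genes past 1.5-fold above and for 121 of 122 past 1.5-fold below.

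With limma (3 siRNA libraries against 1 control, log2(FPKM + 0.1), Benjamini-Hochberg adjustment over the 12983 genes) 1 gene was called higher (0.0077%) and 0 lower (0.0%), against 2413 genes at an unadjusted p under 0.05. The 1 called row was MIR671, a short microRNA precursor locus on chromosome 7, with 11.6, 19.7 and 9.36 FPKM in the siRNA libraries and 0.00228 FPKM in the control (adjusted p = 0.0124, limma). It is named after its value was seen. Libraries of polyadenylated RNA do not measure mature microRNAs, and an estimate near 0 for so short a feature can be a failed one, which was not tested. In this fit the lone control is assumed to vary as the siRNA libraries do. The directions that follow are therefore positions relative to 1 control library, and none of the genes named below other than MIR671 passed an adjusted test.

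Genes were ranked by the smallest of their 3 log2 ratios among those that reached 5 FPKM and span at least 1000 bases. The gene farthest above the control by that rank was PTPMT1, a mitochondrial phosphatase needed to make cardiolipin. It measured 14.2 (si4), 14.3 (si5), 13.96 (library labelled ZSCAN5B si1) and 7.43 FPKM (control), so the 3 siRNA libraries nearly coincided (range 0.03 on the log2 scale) at a mean log2 ratio of 0.93. MET, the receptor of hepatocyte growth factor, stood at 12.8, 15.4, 15.9 and 8.05 FPKM. Its siRNA libraries were spread over 0.31 on the log2 scale, with si4 lowest and the other two close together, and all 3 were above the control.

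TOMM20, an import receptor of the mitochondrial outer membrane, was the most abundant gene of this set, at 193, 211, 217 and 123.3 FPKM. BANF1, a DNA-bridging protein that helps the nuclear envelope to reassemble after mitosis, measured 115, 116, 115 and 74.9 FPKM. For both genes every siRNA library lay above the control by more than the siRNA libraries differed, and BANF1 had a range of only 0.01 on the log2 scale. The other members were LZTFL1, a regulator of ciliary protein traffic, at 9.26, 7.72, 7.80 and 4.99 FPKM, and RABGGTB, a subunit of the enzyme that attaches lipid anchors to Rab proteins, at 38.9, 36.5, 37.8 and 24.2 FPKM. ZEB1, a transcription factor of epithelial-mesenchymal transition, stood at 6.14, 5.25, 5.01 and 3.33 FPKM. ZMPSTE24, the protease that matures prelamin A, and LSM3, a subunit of the ring that binds U6 RNA, had mean log2 ratios of 0.63 and 0.61.

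On the other side, the gene farthest below the control was MLL2 (KMT2D in current annotation), a histone H3 lysine methyltransferase. It measured 2.52 (si4), 2.96 (si5), 3.05 (library labelled ZSCAN5B si1) and 5.65 FPKM (control), with log2 ratios of at most -0.89. EP400, an ATPase of a histone acetyltransferase complex, stood at 3.75, 3.72, 3.83 and 6.91 FPKM. Its 3 siRNA libraries differed by 0.04 on the log2 scale while the mean log2 ratio was -0.87. Both genes have long transcripts, of 20635 and 12289 bases.

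SRRM2, a scaffold of splicing speckles, was the most abundant of these lower genes, at 24.1, 23.5, 24.98 and 44.6 FPKM. POLR2A, the largest subunit of RNA polymerase II, measured 14.03, 14.9, 16.2 and 28.5 FPKM, and MDC1, a mediator of the DNA damage response, 11.6, 12.1, 11.98 and 21.2 FPKM. In all 3 genes the siRNA libraries lay close together and far from the control, with mean log2 ratios of -0.88, -0.93 and -0.83. BCL2L11, the proapoptotic protein BIM, stood at 11.2, 9.99, 10.7 and 20.1 FPKM. TMEM64 was the one gene among them whose libraries disagreed in size, at 5.84, 6.501, 3.18 and 11.8 FPKM, with the library labelled ZSCAN5B si1 lowest. PRR12 and MBD6 were also among the genes ranked farthest below the control, at mean log2 ratios of -0.88 and -0.82.

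**Figure D1:**
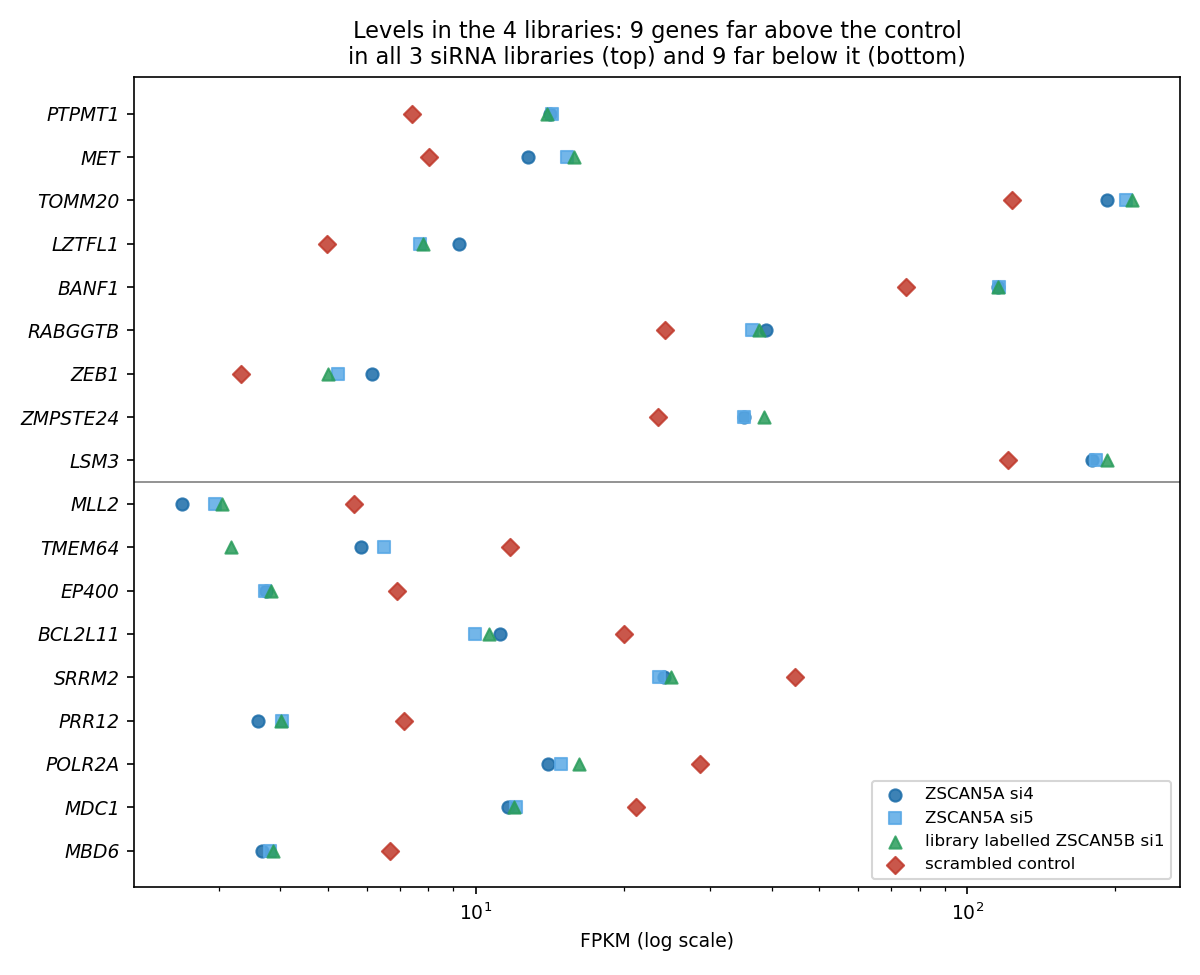
Level in FPKM (log axis) of 9 genes far above and 9 far below the scrambled control in all 3 siRNA libraries; each symbol is 1 library. The control (diamond) is set apart from the 3 siRNA libraries in every row, as the choice of genes requires, and the siRNA symbols nearly coincide for BANF1, PTPMT1 and EP400 but not for TMEM64.

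The 1.5-fold limit fell within a continuous distribution. Just inside it on the higher side were ZEB1 and RABGGTB, both with a smallest log2 ratio of 0.59, and just outside it ZMPSTE24 at 0.58 and LSM3 at 0.57. On the lower side TIMP2, an inhibitor of matrix metalloproteinases, and GLI3, a transcription factor of Hedgehog signalling, lay just inside it, both at -0.59. FOXK1, a forkhead factor, and PLAGL2, a zinc finger factor, lay just outside at -0.58 both. Only 12 of the 21 higher and 57 of the 144 lower genes past the limit reached 5 FPKM.

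Among 33 functional lists, 12 had more than 50% of their compared members above the control in all 3 libraries and 9 had more than 50% below it. The median of the mean log2 ratio over all genes, with 1 row per symbol, was -0.02. Among the 12 with mostly higher members were the ribosomal protein, ribosome biogenesis, mitochondrial import, proteasome and respiratory chain lists. The 9 with mostly lower members were HOX genes, developmental transcription factors, chromatin regulators, extracellular matrix, adhesion and guidance, Wnt, Notch and Hedgehog signalling, giant cytoskeletal and scaffold genes, SCAN zinc finger genes and small RNA silencing.

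Of 88 cytosolic ribosomal protein genes compared, 81 (92.0%, against 30.1% of all genes) were above the control in all 3 libraries, and the median of their mean log2 ratio was 0.29. RPL9 measured 1907 (si4), 1901 (si5), 1900 (library labelled ZSCAN5B si1) and 1477 FPKM (control), RPL35A 1812, 1849, 1794 and 1359 FPKM, and RPL34 487, 488, 478 and 351 FPKM. The 3 siRNA libraries agreed to within 0.04 on the log2 scale in each, well inside their distance from the control. All 33 small-subunit members were above the control, and so were 48 of 55 large-subunit members. The 1 member below it, named here after its values were seen, was the pseudogene RPL32P3. Ribosomal protein genes have many processed pseudogenes, so that the division of reads among copies is uncertain.

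The 77 mitochondrial ribosomal protein genes had 63 higher members and 2 lower ones, MRPL10 and MRPS6, at a median of 0.23. MRPL3 measured 94.0, 89.5, 95.4 and 70.3 FPKM. The respiratory chain and ATP synthase list had 73 of 80 members above the control and 0 below it, at a median of 0.24, and all 5 complexes took part, with complex I at 34 of 37 members. COX6B1, a subunit of cytochrome c oxidase, measured 962, 986, 929 and 719 FPKM, and UQCR11, a subunit of complex III, 113, 103, 110 and 80.1 FPKM. In mitochondrial protein import 25 of 26 members were higher and 0 lower, at a median of 0.25, led by TOMM20, its only member past 1.5-fold, and by TOMM22 at 91.9, 84.1, 88.0 and 63.9 FPKM. Every one of the 10 outer-membrane members was higher.

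The proteasome, which degrades ubiquitin-tagged proteins, had 36 of 40 members above the control and 0 below it, at a median of 0.24. PSMB3 measured 281, 283, 281 and 219 FPKM and PSMB7 142, 132, 142 and 105 FPKM. PSMB9, the immunoproteasome subunit, had the largest smallest-of-3 log2 ratio (0.38) but stood at only 1.08, 1.13, 0.820 and 0.630 FPKM. Ribosome biogenesis factors had 113 of 150 members higher and 7 lower, at a median of 0.20. DDX10, an RNA helicase of that list, measured 12.8, 11.5, 13.8 and 7.89 FPKM, and RSL24D1 109, 109, 107 and 75.8 FPKM. Of the Sm and LSm proteins, which form rings on small nuclear RNAs, 16 of 23 were higher at a median of 0.27, led by LSM3 at 179, 183, 192 and 121 FPKM and SNRPD2 at 644, 640, 651 and 455.9 FPKM. LSM11, SNRPA, LSM14B and LSM2 were the 4 lower members.

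Smaller shifts in the same direction were seen in the genes that charge and modify tRNA and start translation. Aminoacyl-tRNA synthetases had 25 of 37 members higher and 2 lower at a median of 0.15, with KARS at 113, 109, 112 and 90.8 FPKM. tRNA modification and processing enzymes had 45 of 73 higher and 5 lower at 0.14, led by the pseudouridine synthase TRUB2 at 22.9, 20.5, 21.3 and 15.7 FPKM. Translation initiation factors had 24 of 40 higher and 5 lower at 0.15. EIF5B, the GTPase that joins the ribosomal subunits, measured 53.2, 52.8, 51.8 and 36.0 FPKM, whereas EIF4G1, named after its values were seen, a scaffold of the cap-binding complex and one of the 5 lower members, measured 72.2, 69.2, 70.5 and 82.0 FPKM. RNA polymerase III subunits and factors had 17 of 28 members higher and 2 lower at 0.07, led by POLR3K at 68.1, 68.1, 67.2 and 56.0 FPKM.

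RNA polymerase II and Mediator were counted separately. Of the 12 polymerase subunits 9 were higher and 2 lower, with POLR2F at 34.03, 36.2, 37.4 and 28.1 FPKM but POLR2A past 1.5-fold below the control. The 9 higher subunits are 75% of the 12, against 30.1% of all genes. Of the 33 Mediator subunits 12 were higher and 12 lower (36.4% each), near the shares of all genes (30.1% and 36.2%). CCNC, the cyclin of the Mediator kinase module, measured 74.8, 76.7, 69.9 and 54.7 FPKM, and MED12L, also past 1.5-fold below, 0.899, 1.06, 0.999 and 1.66 FPKM. In the chaperone list the TRiC chaperonin, which folds actin and tubulin, had 7 of 8 members higher, against 22 of 52 heat shock genes. HSP90AA1 measured 568, 505, 595 and 387 FPKM.

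Chromatin regulators made up the largest group past 1.5-fold. Of 113 members 82 (72.6%, against 36.2% of all genes) were below the control in all 3 libraries and 15 above it, the median was -0.20, and 16 of the 113 were past 1.5-fold below, against 1.11% of all genes. Enzymes and readers of histone acetylation had 33 of 38 members lower and a median of -0.36. The acetyltransferases EP300 and CREBBP were both past 1.5-fold, at 7.22, 6.86, 6.84 and 10.96 FPKM for EP300 and 4.28, 4.16, 4.30 and 6.54 FPKM for CREBBP. Genes of histone lysine methylation had 30 of 41 lower, among them MLL2, MLL3, MLL4 (KMT2B), SETD1B, DOT1L and the demethylase KDM6B past 1.5-fold. MLL4 measured 9.66, 9.55, 9.79 and 16.6 FPKM and DOT1L, the H3K79 methyltransferase, 4.29, 4.77, 4.73 and 7.79 FPKM. Remodelling ATPases and their partners had 19 of 34 lower. ARID1A, a subunit of the BAF remodelling complex, measured 7.15, 7.82, 6.42 and 12.4 FPKM and SRCAP, an ATPase that deposits H2A.Z, 6.71, 7.02, 7.25 and 11.9 FPKM. EP400, RERE, BCORL1, BAZ2A and CIC were further members past 1.5-fold, at mean log2 ratios from -0.87 (EP400) to -0.70 (CIC).

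The HOX genes, which set position along the body axis in the embryo, had 31 of 36 compared members (86.1%) below the control in all 3 libraries at a median of -0.25. HOXC8 was past 1.5-fold, at 6.23 (si4), 7.19 (si5), 6.28 (library labelled ZSCAN5B si1) and 11.01 FPKM (control), and HOXA4 measured 7.40, 7.20, 6.996 and 10.8 FPKM. In both, the siRNA libraries were closer to each other than to the control. All 4 clusters took part: 10 of 11 HOXA, 8 of 9 HOXB, 6 of 8 HOXC and 7 of 8 HOXD genes were lower, with cluster medians from -0.41 (HOXA, on chromosome 7) to -0.16 (HOXB, on chromosome 17). The 3 higher members were HOXC11, HOXC13 and HOXD13, at mean log2 ratios of 0.17, 0.15 and 0.13, and their names were picked out after their values were seen. Other genes of the same numbers, HOXA11, HOXA13 and HOXD11, were lower in all 3 libraries, at -0.19, -0.15 and -0.24, and HOXB13 was split. The control differed from the siRNA libraries by more than their range in only 11 of the 36, all lower. HOXA5, named after its values were seen, measured 16.05, 27.1, 24.03 and 29.5 FPKM, with the si4 library lowest and a range of 0.76 among the siRNA libraries on the log2 scale.

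Other developmental transcription factors had 108 of 167 members lower and 17 higher at a median of -0.20. PAX2, a factor of kidney development, measured 0.584, 0.615, 0.608 and 1.16 FPKM, ZFHX3 1.79, 1.84, 2.00 and 3.39 FPKM, and the forkhead factor FOXJ2 3.33, 3.14, 3.28 and 5.14 FPKM. These 3 together with FOXQ1 and GLI3 were past 1.5-fold below, and ZEB1 was the 1 member past it above. Extracellular matrix genes had 61 of 78 members lower and 1 higher, LAMA4, at a median of -0.27. HSPG2, the basement membrane proteoglycan perlecan, stood at 0.955, 1.12, 1.14 and 2.31 FPKM and LAMA5, a laminin chain, at 3.53, 4.55, 3.95 and 7.33 FPKM. NID1, which links laminin to collagen IV, was the most abundant matrix gene past 1.5-fold, at 32.0, 24.3, 31.4 and 48.2 FPKM, and the metalloprotease ADAMTS17 was the other.

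Cell adhesion and axon guidance genes had 71 of 106 members lower and 10 higher at a median of -0.24. LRP1, an endocytic receptor, measured 1.47, 2.02, 1.64 and 3.50 FPKM. SLIT3, PLXNA2, PCDHGA11 and CELSR1 were also past 1.5-fold below, at mean log2 ratios of -0.91, -0.78, -0.66 and -0.76. In Wnt, Notch and Hedgehog signalling 38 of 62 members were lower and 10 higher at a median of -0.15, and the 2 past 1.5-fold were the receptors NOTCH2 (7.26, 6.38, 7.96 and 12.5 FPKM) and NOTCH1 (1.15, 1.12, 1.26 and 1.93 FPKM). Genes of very large cytoskeletal and scaffold proteins had 38 of 59 lower and 8 higher at -0.19. Only 1 of the 59 was past 1.5-fold below, against 1.11% of all genes. It was TNRC6C, at 2.04, 2.22, 1.78 and 3.44 FPKM.

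**Figure D2:**
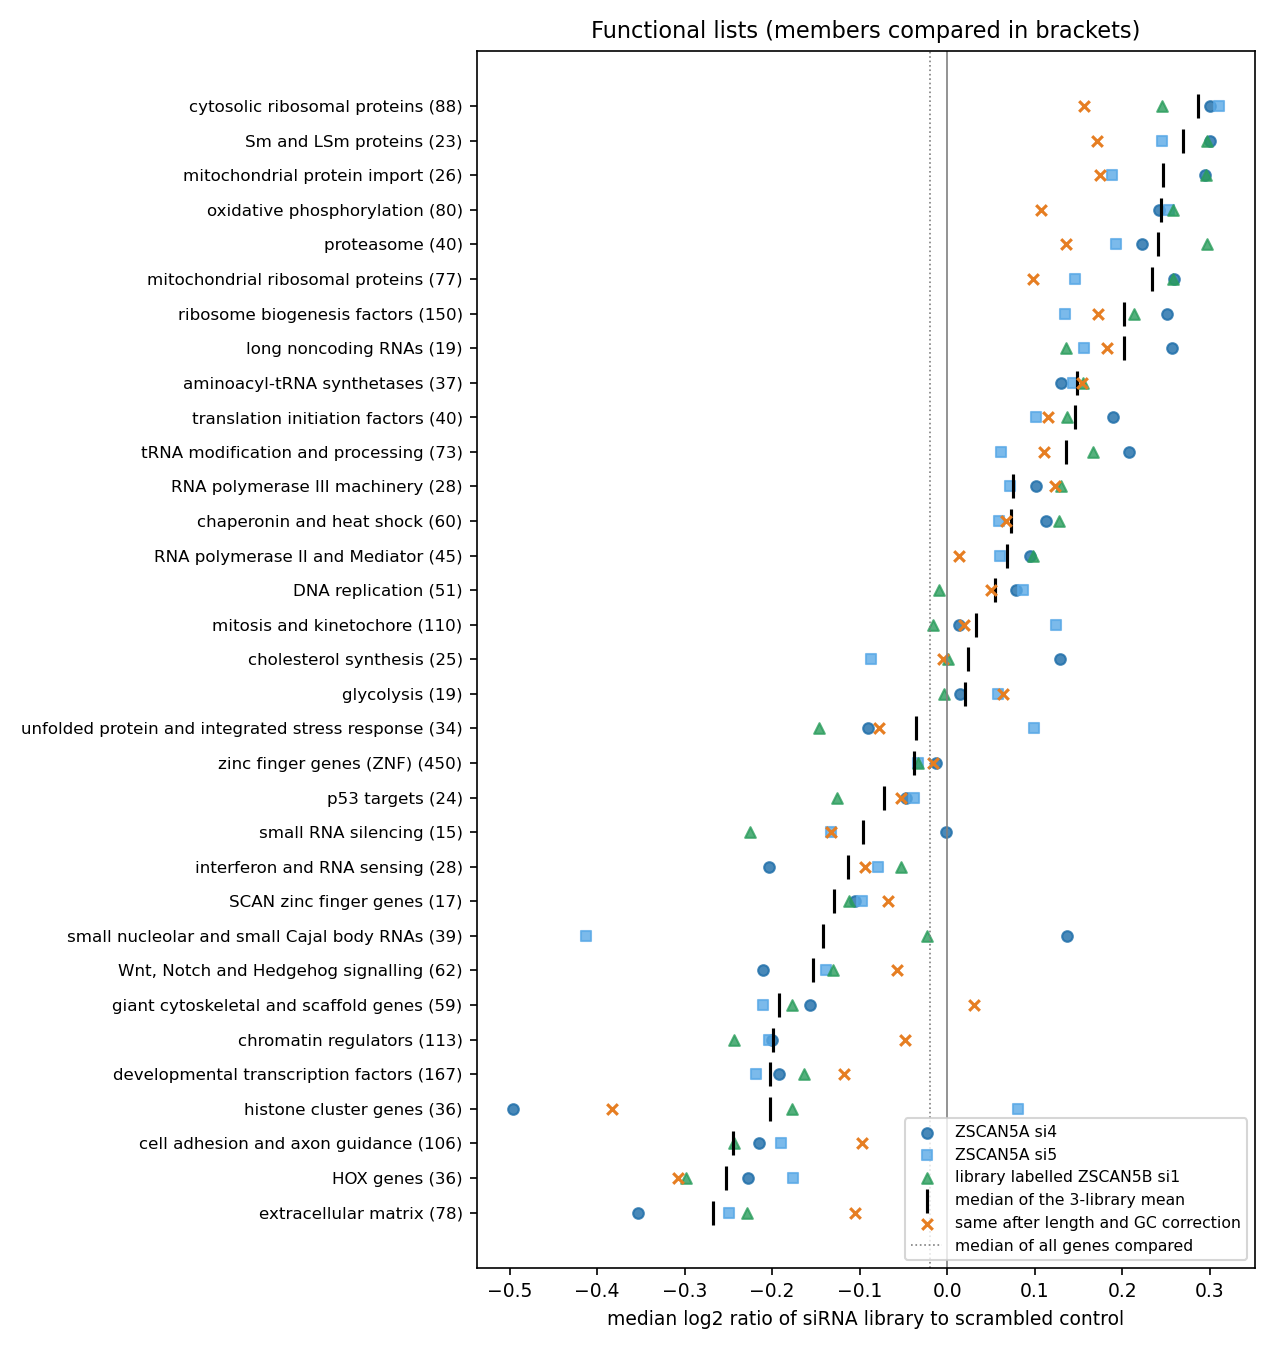
Median log2 ratio to the scrambled control of 33 functional lists in each siRNA library (coloured symbols), the median of the 3-library mean (bar) and the same after correction for transcript length and GC content (cross, drawn where at least 80% of the members have a length). Ribosomal protein, ribosome biogenesis, mitochondrial import and respiration lists lie on the right at 0.20 to 0.29, matrix and HOX genes at the left at -0.27 and -0.25, and the crosses of matrix, adhesion, chromatin and giant scaffold genes lie nearer to 0 than their bars while those of HOX and histone genes lie farther from it.

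Zinc finger genes as a class stayed near the background, with 117 of 450 ZNF genes higher (26%) and 170 lower (37.8%) at a median of -0.04. The 2 past 1.5-fold were ZNF713 (0.714, 0.707, 0.676 and 1.44 FPKM) and ZNF70 (1.13, 1.33, 1.33 and 2.33 FPKM). Of 17 SCAN zinc finger genes 11 were lower and 3 higher at -0.13, led by ZKSCAN1 at 5.98, 5.94, 6.18 and 7.58 FPKM. Genes of mitosis and the kinetochore had 45 of 110 members higher (40.9%, against 30.1% of all genes) and 19 lower (17.3%, against 36.2%) at 0.03. DNA replication genes had 20 of 51 higher (39.2%) and 13 lower (25.5%) at 0.05. Library medians in the order si4, si5 and si1 label differed in sign, at 0.01, 0.12 and -0.02 for mitosis and 0.08, 0.09 and -0.01 for replication. Without si5 the mitosis list had 47 higher and 45 lower members at a median of 0.002. STAG2, a cohesin subunit, measured 58.3, 58.8, 55.9 and 40.5 FPKM and KIF18A, a mitotic kinesin, 8.23, 8.86, 8.07 and 6.05 FPKM. ORC4, a subunit of the origin recognition complex, measured 12.7, 12.6, 11.97 and 10.3 FPKM.

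Lists that handle or respond to small and foreign RNA, DNA damage or misfolded protein had medians between -0.11 and -0.04. Interferon-stimulated and RNA-sensing genes had 13 of 28 members lower (46.4%, against 36.2% of all genes) and 7 higher (25%, against 30.1%). Their median was -0.11, and the adaptor MAVS measured 10.99, 9.74, 10.7 and 14.6 FPKM. Of 24 p53 targets 11 were lower (45.8%) and 4 higher (16.7%) at -0.07, led by BTG2 at 31.0, 29.3, 36.3 and 45.7 FPKM. The unfolded protein and integrated stress response had 7 of 34 lower and 3 higher at -0.04. These are 20.6% and 8.82%, both below the shares of all genes (36.2% and 30.1%). Its library medians differed in sign, at -0.09 (si4), 0.10 (si5) and -0.15 (library labelled ZSCAN5B si1). EDEM1 measured 9.55, 10.8, 11.3 and 13.8 FPKM. PDIA4, 1 of the 3 higher members and named after its values were seen, measured 85.8, 79.4, 82.7 and 59.2 FPKM. Among 15 genes of small RNA silencing 8 were lower (53.3%) and 4 higher (26.7%) at -0.10. EIF2C2, the slicing Argonaute AGO2, measured 5.52, 5.79, 5.33 and 7.81 FPKM. Cholesterol synthesis and glycolysis lay at medians of 0.02 each. In cholesterol synthesis 4 of 25 members were higher (16%) and 3 lower (12%), and the leading member ACAT2 measured 108, 82.0, 87.0 and 78.2 FPKM. In glycolysis 6 of 19 were higher (31.6%) and 5 lower (26.3%), and LDHB, a lactate dehydrogenase, measured 1203, 1148, 1221 and 899 FPKM.

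Histone cluster genes had 14 of 36 members lower (38.9%, near the 36.2% of all genes) and 3 higher (8.33%, against 30.1%). Their median was -0.20, but the libraries were far apart, at -0.50 (si4), 0.08 (si5) and -0.18 (library labelled ZSCAN5B si1). Of the 9 members that reached 5 FPKM in one library, 0 were lower and 0 higher in all 3. HIST1H2AK and HIST1H2BO were past 1.5-fold below on an estimated 42 and 29 control fragments, and most replication-dependent histone messengers lack a poly(A) tail. The 39 small nucleolar RNAs were similarly scattered, with 5 higher (12.8%), 11 lower (28.2%) and library medians of 0.14, -0.41 and -0.02. SNORA31 (12.8, 18.0, 18.3 and 4.64 FPKM) and SNORA61 (21.3, 15.0, 27.4 and 9.28 FPKM) were past 1.5-fold above, and SNORD97 (5.47, 1.93, 2.94 and 23.9 FPKM) and SNORA65 (3.38, 7.17, 7.26 and 14.8 FPKM) below. Long noncoding RNAs had 10 of 19 members higher (52.6%) and 2, NEAT1 and TUG1, lower (10.5%) at a median of 0.20. The 1 member past 1.5-fold, at a mean log2 ratio of 1.44, was RMRP, which is counted in this list although it is a short RNA. SNHG5, a snoRNA host gene, measured 417, 374, 388 and 306 FPKM.

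The genes on the 2 sides of the control differed in transcript length. Canonical transcripts could be assigned to 12397 of the 12983 genes (95.5%), and their median length was 2392 bases for genes higher in all 3 libraries, 4293 for those lower and 3311 for all. Genes past 1.5-fold below had a median of 6396 bases and 17 exons, against 9 exons over all. The same comparison is void for the genes past 1.5-fold above, of which 61.9% have a length. Across length deciles the share of genes higher in all 3 libraries went from 58.8% in the shortest decile, with a median of 897 bases, to 16.2% in the longest, while the share lower went from 14.8% to 56.3%. In each of the 3 libraries the median log2 ratio ran the same way, from 0.18 to -0.13 for si4, from 0.14 to -0.12 for si5 and from 0.17 to -0.14 for the library labelled ZSCAN5B si1. Since the ratios share the control, these are not 3 independent observations. Of the 144 genes past 1.5-fold below, 122 have a length, and 49 of these lay in the longest decile, which holds 1240 of the 12397 genes.

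GC content was related in a less even way. Transcripts of genes higher in all 3 libraries had a median GC content of 45.8%, those of lower genes 50.8% and those past 1.5-fold below 55.3%, against 48.2% for all. The share of higher genes went from 45.6% in the decile of lowest GC to 26.5% in the fifth and changed little beyond it, and the share of lower genes from 18.5% to 41.9% and then between 40.6% and 44.8%. Level was related as well: in the decile of genes with the highest control FPKM (median 101) 64.5% were higher in all 3 libraries and 11.8% lower, whereas in the second decile (median 2.80) 15.9% were higher and 49.8% lower. The most abundant decile also had the shortest transcripts, with a median of 1704 bases.

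**Figure D3:**
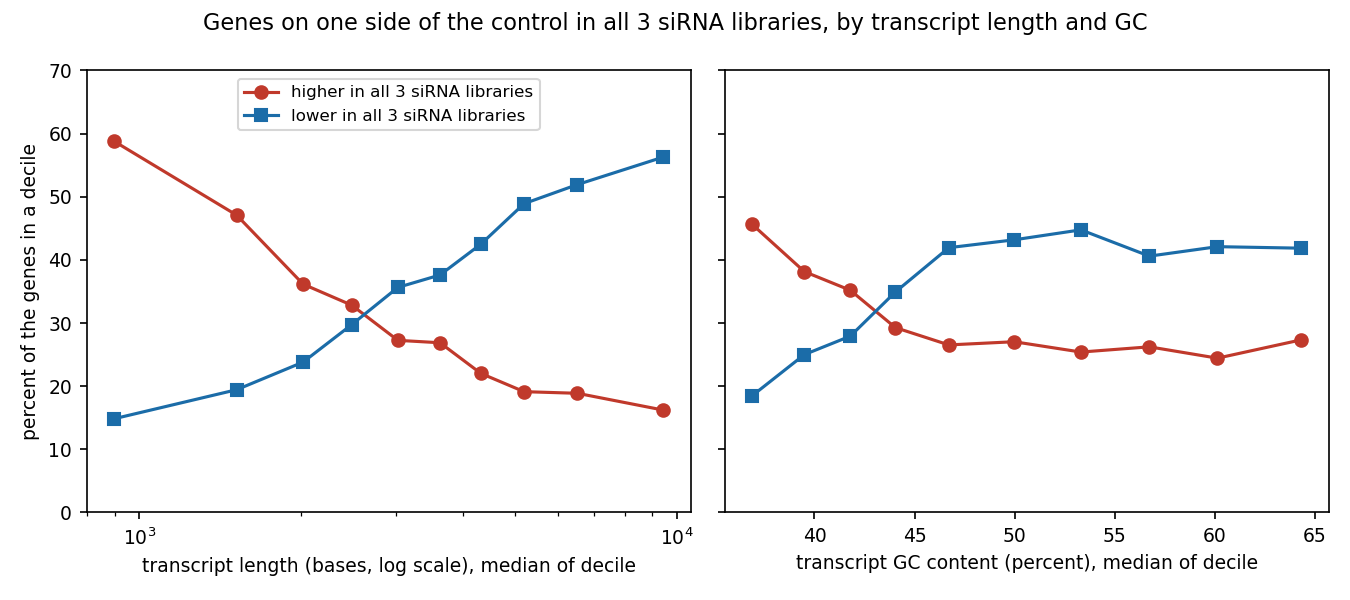
Percent of genes higher (circles) or lower (squares) than the control in all 3 siRNA libraries, by decile of transcript length (left, log axis) and of transcript GC content (right); each point is about 1240 genes. The higher share goes from 58.8% to 16.2% with length and the lower share from 14.8% to 56.3%, and the GC relation flattens above about 46.7% GC.

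To see what remained beyond length and GC content, the median log2 ratio of genes in the same length and GC bin was subtracted from each ratio, library by library. Of the 122 genes past 1.5-fold below that could be tested 32 stayed past it, and of 13 above 7 did. The median of chromatin regulators went from -0.20 to -0.05, that of extracellular matrix genes from -0.27 to -0.11, that of adhesion and guidance genes from -0.24 to -0.10, and that of the giant cytoskeletal genes from -0.19 to 0.03. The lists of protein synthesis and respiration stayed above 0, ribosomal proteins at 0.16, mitochondrial import at 0.17, the proteasome at 0.14, oxidative phosphorylation at 0.11 and mitochondrial ribosomal proteins at 0.10. Level, which was also related to direction, was not corrected for. The median control level was 1444 FPKM for ribosomal proteins and 122 FPKM for oxidative phosphorylation, against 10.1 FPKM over all genes. What a correction for level would leave was not tested. Ribosome biogenesis factors (0.17) and aminoacyl-tRNA synthetases (0.15) moved little, and their median transcripts are 2656 and 2727 bases long. HOX genes, whose median transcript is 1989 bases long, went from -0.25 to -0.31 with 30 of 36 members still lower in all 3 libraries. The 20 genes with the largest differences kept their direction, MLL2 with a smallest log2 ratio of -0.52, EP400 with -0.48, PTPMT1 with 0.91 and TOMM20 with 0.55. Whether length and GC content stand for library preparation or for the RNAs themselves was not tested.

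**Figure D4:**
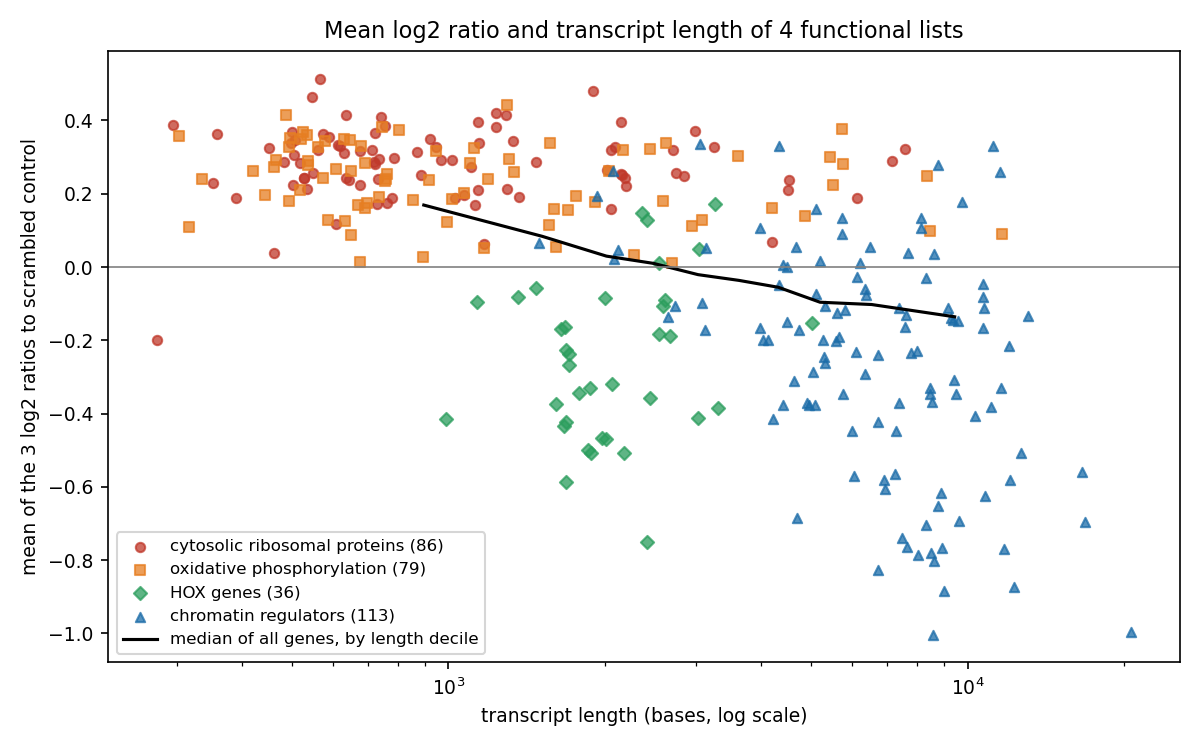
Mean of the 3 log2 ratios to the scrambled control against transcript length (log axis) for the genes of 4 functional lists, with the median of all genes by length decile as a line. Ribosomal and respiratory genes lie above the line at most lengths, most HOX genes lie below it although their transcripts are short, and the chromatin regulators that are lowest have long transcripts.

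No chromosome stood far from the others in the share of genes on one side of the control. The share of genes higher in all 3 libraries was between 25.7% (chromosome 17) and 33.7% (chromosome 14), and the share lower between 31.7% (chromosome 3) and 41.5% (chromosome 17). On chromosome 12, 18 of 683 genes compared were past 1.5-fold below, among them MLL2, EP400, SETD1B, MBD6, BAZ2A and HOXC8. On chromosome 1 it was 15 of 1288, and over all genes 144 of 12983 (1.11%). The larger share on chromosome 12 was not tested.

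Promoter sequences were examined, and 81.3% of the genes searched have a window in the RefSeq table used (GRCh38.p14, 250 bases before to 50 after the start). The motif of ETS factors, CCGGAAG on either strand, was present in 19.7% of these windows and in 26.7% of those of genes higher in all 3 libraries. It was present in 41.1% of windows of ribosome biogenesis factors, 40.6% of mitochondrial ribosomal proteins, 33.8% of cytosolic ribosomal proteins and 29.7% of oxidative phosphorylation genes, but also in 41.0% of the ZNF genes, whose median log2 ratio was -0.04, and in 10.8% of chromatin regulators. For the genes lower in all 3 libraries the comparison is void, since 79.6% have a window, below the 80% asked for. The E-box CACGTG was as frequent in the higher genes (10.5%) as in all (10.4%), and CCAAT was close (38.9% and 37.2%). The GC box GGGCGG was in 69.1% and 71.4%, the YY1 motif in 3.55% and 2.90%, the NRF1 motif in 2.55% and 2.40%, the TATA motif TATAAA in 5.03% and 5.30%, and the B box GGTTCGA in 1.10% and 1.23%, each searched on both strands. A match of letters is a description of the window and not a measure of binding.

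Of the 10 genes ranked farthest above the control, 9 have a window and 4 of these hold the ETS letters, against 19.7% of all windows. Among the genes ranked farthest below, the window of EP400 also holds them. A link of the letters to direction was not tested in so few windows. The 4 windows of the higher genes are shown with the letters in capitals. The windows are those of TOMM20 (chr1:235128788-235129087, minus strand), LZTFL1 (chr3:45842070-45842369, minus strand), BANF1 (chr11:66002253-66002552, plus strand) and ZMPSTE24 (chr1:40257986-40258285, plus strand), all on GRCh38.p14.
TOMM20: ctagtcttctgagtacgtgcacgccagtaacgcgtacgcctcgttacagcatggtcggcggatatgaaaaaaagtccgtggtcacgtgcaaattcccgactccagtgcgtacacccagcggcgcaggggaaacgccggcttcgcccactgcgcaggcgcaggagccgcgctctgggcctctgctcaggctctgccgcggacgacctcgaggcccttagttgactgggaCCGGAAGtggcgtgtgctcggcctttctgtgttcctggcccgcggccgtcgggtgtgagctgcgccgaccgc
LZTFL1: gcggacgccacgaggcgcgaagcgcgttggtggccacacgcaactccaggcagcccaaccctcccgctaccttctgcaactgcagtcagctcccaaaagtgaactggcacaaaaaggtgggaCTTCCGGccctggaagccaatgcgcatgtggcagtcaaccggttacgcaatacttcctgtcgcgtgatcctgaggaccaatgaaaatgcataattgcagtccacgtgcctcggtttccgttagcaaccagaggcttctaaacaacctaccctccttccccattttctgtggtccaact
BANF1: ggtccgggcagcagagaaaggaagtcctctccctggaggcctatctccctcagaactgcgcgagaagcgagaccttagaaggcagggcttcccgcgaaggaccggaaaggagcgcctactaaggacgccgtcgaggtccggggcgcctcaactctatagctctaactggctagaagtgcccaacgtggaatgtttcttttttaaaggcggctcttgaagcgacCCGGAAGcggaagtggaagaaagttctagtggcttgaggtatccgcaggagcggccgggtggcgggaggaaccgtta
ZMPSTE24: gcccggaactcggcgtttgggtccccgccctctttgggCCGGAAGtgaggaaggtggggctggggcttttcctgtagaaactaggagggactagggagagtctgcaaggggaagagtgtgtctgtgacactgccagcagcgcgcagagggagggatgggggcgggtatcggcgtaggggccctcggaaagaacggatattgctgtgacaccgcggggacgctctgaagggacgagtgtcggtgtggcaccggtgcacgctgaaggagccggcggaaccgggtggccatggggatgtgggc
In TOMM20 and BANF1 the motif reads CCGGAAG and lies shortly before the start of the transcript, and in LZTFL1 it stands on the opposite strand as CTTCCGG.

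Seed matches of the 3 siRNAs in annotated 3′ untranslated regions were counted as the 7 letters shown in capitals in the target sequences. The si4 match ACGTGTA was present in 3.36% of all 12036 regions and in 4.23% of those of genes lower in all 3 libraries, the si5 match ACAAGAG in 12% and 14.3%, and the si1 match ATCATTT in 23.3% and 25.8%. The regions of the lower genes are longer, with a median of 1768 bases against 1366. Per kilobase the lower genes held 0.0188, 0.0686 and 0.157 matches, and all genes 0.0175, 0.0683 and 0.166, values closer to each other than the shares are. In the genes past 1.5-fold below the si4 match was in 1.69%, the si5 match in 19.5% and the si1 match in 25.4% of 118 regions. These regions have a median of 2079.5 bases. They held 0.0061 (si4), 0.0914 (si5) and 0.149 (si1) matches per kilobase, so only the si5 value was above that of all genes. This difference was not tested.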

How the data were processed

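The authors sequenced strand-specific polyadenylated libraries of 4 HEK-293 transfections and deposited gene-level FPKM values; per the labels and submitters' notes they used CASAVA 1.8.2, Trimmomatic 0.30, TopHat2 2.1.0 and Cufflinks 2.2.1 on hg19. The kit is named differently in the labels and the methods, and the annotation release is not given in the sources used here. No counts were used, so depth was estimated from low values: of 1745 rows under 0.1 FPKM in all 4 libraries, 70.2% stood in whole-number proportions (tolerance 0.05%). Intervals cover counting error only.

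Log2 ratios of each siRNA library to the control were taken without a pseudocount; counts of genes carry no test. limma 3.58.1 in R 4.3.3 was run with a trend on log2(FPKM + 0.1), 3 libraries against 1, a scale that understates changes of low genes. Rules and the fit were tested on simulated data. Transcript length, GC content and regions came from GENCODE v44lift37 and promoters, for genes outside chromosome 8, from RefSeq. Of the genes compared, 1209 matched through an older symbol. Named genes were ZSCAN5A, ZSCAN5B, RMRP and RPPH1; the 10 farthest above and below the control among those reaching 5 FPKM with a locus of at least 1000 bases; the 3 leading members of each list in the direction most members took, and every member past 1.5-fold; and 2 on each side of that limit; 2 of these genes are not reported here. MIR671, EIF4G1, HOXA5 and list members named against the direction of their list were picked after their values were seen. Genes and lists were chosen with earlier results of these data known. Alternatives were other scalings, expression limits, fold limits and pseudocounts, 1 row per symbol, leaving out each siRNA library, and a correction in 10 length by 5 GC bins. There were 0 unused per-sample columns.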

Additional observations from a re-analysis of the deposited data

Results flagged for a closer look

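ZSCAN5A and ZSCAN5B were noted because the 2 ZSCAN5A siRNA libraries lay on one side of the control and the library labelled ZSCAN5B si1 on the other. For ZSCAN5A the log2 ratios were -1.73 (si4), -1.76 (si5) and 0.0662 (library labelled ZSCAN5B si1). For ZSCAN5B they were -1.45, -0.45 and 0.0699, on an estimated 4 to 10 fragments per library. With 1 library per siRNA these differences were not tested.

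Of the rows left out of the comparison for a 0, 8 were at 1 FPKM or above on the other side in every library. AMZ2, a metalloprotease gene on chromosome 17, is listed at 0 in the control and at 88.1 (si4), 79.4 (si5) and 90.3 FPKM (library labelled ZSCAN5B si1). MIR762 is listed at 0 in the control and at no less than 105 FPKM in the siRNA libraries, and SNORA22 at 0 against no less than 3.64 FPKM. Listed at 0 in all 3 siRNA libraries were MIR499A (6.53 FPKM in the control), SNORA44 (4.29), SNORD83B (43.2), SNORD88C (29.9) and SNORD89 (9.68). All but AMZ2 span under 150 bases, and an exact 0 in such a file can be a failed estimate.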

How the results depend on the processing

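Counts past 1.5-fold depended on the settings. The 21 higher genes became 13 with at least 1 FPKM in all 4 libraries, 12 with at least 5 FPKM in one library, 222 with no expression limit, 13 after the length and GC correction, 186 at a lower fold limit, 5 at 2-fold and 10 with a pseudocount of 1. The 144 lower genes became 57 with at least 5 FPKM, 477 with no limit, 48 after the length and GC correction, 791 at the lower fold limit, 6 at 2-fold and 32 with a pseudocount of 1. Leaving out 1 siRNA library, so that 2 had to agree, gave 32 to 44 higher and 179 to 227 lower, both most without si5. It gave 2717 to 3132 higher and 3236 to 3404 lower genes whose control lay outside the siRNA libraries by more than their range, a weaker demand on 2 libraries than on 3. With at least 5 FPKM in one library 9456 genes were compared. In all 3 libraries 3391 (35.9%) were then higher and 2972 (31.4%) lower. The higher share was thus the larger, whereas over the 12983 genes it was the smaller (30.1% against 36.2%). Beyond the range 1444 (15.3%) were higher and 1247 (13.2%) lower, against 12.3% and 15.5% over the 12983. limma called 0 higher genes with a pseudocount of 1 and 0 with no expression limit. Without one siRNA library limma called 1 to 4 higher and 0 to 2 lower genes, most without si4. After the length and GC correction 4 lists, not 9, had over 50% of members lower, and the median of the giant cytoskeletal and scaffold genes turned to 0.0308. The median of histone genes was 0.02 without si4, that of small nucleolar RNAs 0.09 without si5, and that of cholesterol synthesis -0.03 without si4 and -0.01 after the correction. The other list medians kept their sign under the alternatives run. The 20 genes with the largest differences kept their direction, but they were ranked by the smallest of these same ratios. Leaving out a library, another expression limit or 1 row per symbol could not have reversed them. No paired analysis was possible because each group has 1 library, so no replicate can be matched between groups.

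The limits are those of 1 library per treatment and a single control: no spread within a treatment was measured, every ratio carries the error of the same control, and the libraries were estimated to differ in depth by up to 1.54 times. Genes below about 5 FPKM rest on fewer fragments, and short RNAs without a poly(A) tail are measured poorly.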
